A study of Caenorhabditis elegans with 2 samples.

Results

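The genes described here build and anchor the contractile apparatus of the body wall muscle of Caenorhabditis elegans. They are 10 named genes of 19973 annotated protein-coding genes, and they were chosen by hand from earlier results of the same peak lists, in which several of them had strong peaks near their starts. For that reason no test was run on their peaks, and all values below are descriptions. The peaks come from chromatin immunoprecipitation followed by sequencing (ChIP-seq) of HAM-2, a zinc-finger protein known for its part in the migration of the HSN neurons, in whole embryos. The strain, OP639, carries the integrated transgene wgIs639, in which ham-2 is fused to TY1::EGFP::3xFLAG and accompanied by unc-119(+), in an unc-119 (tm4063) background. Per the labels, eggs were obtained by bleaching, the embryos were of mixed stage and mixed sex with an age of 3 hours, and the antibody was against GFP. The series has 1 group with 2 biological replicates, numbered 6 and 7, and no untagged strain was analysed here. The tissue is the whole embryo, so a site bound in few cells and a site bound weakly in many cells cannot be told apart.

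Body wall muscle cells are fixed to the basement membrane at dense bodies and M-lines. There a transmembrane integrin binds matrix proteins such as perlecan outside the cell. Inside the cell it is held by a complex of kindlin, integrin-linked kinase and PINCH, and from it actin filaments are anchored through alpha-actinin. Worms that lack core parts of this complex are paralysed as embryos and arrest during elongation, which gave the pat genes their name. Of the genes described, unc-52 encodes perlecan and pat-3 the beta-integrin. The kindlin is unc-112, the integrin-linked kinase pat-4 and the PINCH protein unc-97. Alpha-actinin is atn-1, the muscle myosin heavy chains are unc-54 and myo-3, and unc-60 encodes cofilin proteins that turn over actin filaments. unc-23 encodes a co-chaperone of the BAG family that is needed to keep muscle attached.

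Summits were sought in a gene window, which begins 2000 bp before the 5′ end of the gene model and stops at its far end. A summit is the position within a peak at which the authors' caller placed its maximum. The signal is the caller's own value, which orders the peaks of 1 list and cannot be set against another list. The pooled list holds 30000 peaks, background included, and its 1945 strongest are the set that passed the submitters' threshold for irreproducible discovery, called the reproducible set. A replicate's top list is likewise its 1945 strongest nuclear peaks, out of 28414 in replicate 6 and 30000 in replicate 7. Positions are on ce11.

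The DNA under 9 of the 12 reproducible summits of these genes is shown first, as bases of the reference genome and not of recovered fragments. The other 3, of unc-23, unc-54 and the unc-52 summit 6026 bp inside the gene, are not shown here. Each line gives a reproducible summit with the 50 bases to either side of it, read 5′ to 3′ on the strand of the gene. Capitals mark the words GCGTCT and GAGAGA on either strand and runs of at least 10 G or C.
unc-97, 1176 bp upstream, chrX:5591907-5592007, plus strand: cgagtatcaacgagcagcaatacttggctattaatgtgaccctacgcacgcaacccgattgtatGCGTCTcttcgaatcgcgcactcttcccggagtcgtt
pat-3, 1811 bp upstream, chrIII:3915910-3916010, minus strand: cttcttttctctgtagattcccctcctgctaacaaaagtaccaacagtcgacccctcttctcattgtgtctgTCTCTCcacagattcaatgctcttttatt
unc-60, 329 bp upstream, chrV:1474707-1474807, plus strand: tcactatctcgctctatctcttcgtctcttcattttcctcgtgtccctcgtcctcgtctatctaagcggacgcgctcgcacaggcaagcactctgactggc
unc-60, 1144 bp upstream, chrV:1473892-1473992, plus strand: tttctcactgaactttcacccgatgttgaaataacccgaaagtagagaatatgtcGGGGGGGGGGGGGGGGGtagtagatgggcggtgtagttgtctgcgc
unc-112, 450 bp upstream, chrV:14697054-14697154, minus strand: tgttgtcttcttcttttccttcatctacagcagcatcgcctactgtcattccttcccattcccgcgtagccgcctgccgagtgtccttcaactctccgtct
pat-4, 313 bp upstream, chrIII:95072-95172, minus strand: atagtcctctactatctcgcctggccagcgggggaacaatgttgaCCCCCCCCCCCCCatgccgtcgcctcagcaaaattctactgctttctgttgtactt
unc-52, 10588 bp inside the gene, chrII:14673818-14673918, minus strand: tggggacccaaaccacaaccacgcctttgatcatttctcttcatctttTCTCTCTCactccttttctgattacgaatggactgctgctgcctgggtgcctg
unc-52, 19154 bp inside the gene, chrII:14665252-14665352, minus strand: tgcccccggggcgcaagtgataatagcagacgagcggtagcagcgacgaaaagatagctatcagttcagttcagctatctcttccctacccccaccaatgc
atn-1, 162 bp upstream, chrV:12478199-12478299, plus strand: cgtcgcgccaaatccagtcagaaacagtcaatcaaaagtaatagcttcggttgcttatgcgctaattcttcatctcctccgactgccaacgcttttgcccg
None of the marked words is common to all of these sequences, and 4 of the 9 hold none of them. The unc-60 sequence 1144 bp upstream and that of pat-4 each hold a long unbroken run, of 17 G and 13 C.

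Of the 10 genes, 9 had a reproducible summit in the gene window, with 12 summits in all, and myo-3 had none. Over all protein-coding genes 9.00% had one (1797 of 19973). The members' count was fixed by how they were chosen and is not a result about them. Gene windows of the members are long, with a median of 7288 bp against 4027 bp over all genes, and longer windows can hold more summits. Among genes with a window at least as long as the members' median, 20.3% had a reproducible summit, as did 4 of the 5 members that long. Of the 12 summits, 8 lay upstream, 3 in introns and 1 in an exon. Over all pairs of a gene and a reproducible summit, 64.0% lay upstream, 29.5% in introns and 6.55% in exons. In the 2000 bp upstream alone, 7 of the 10 genes had a summit, against 6.32% of all genes. This count, too, follows from how the genes were chosen.

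**Figure D1:**
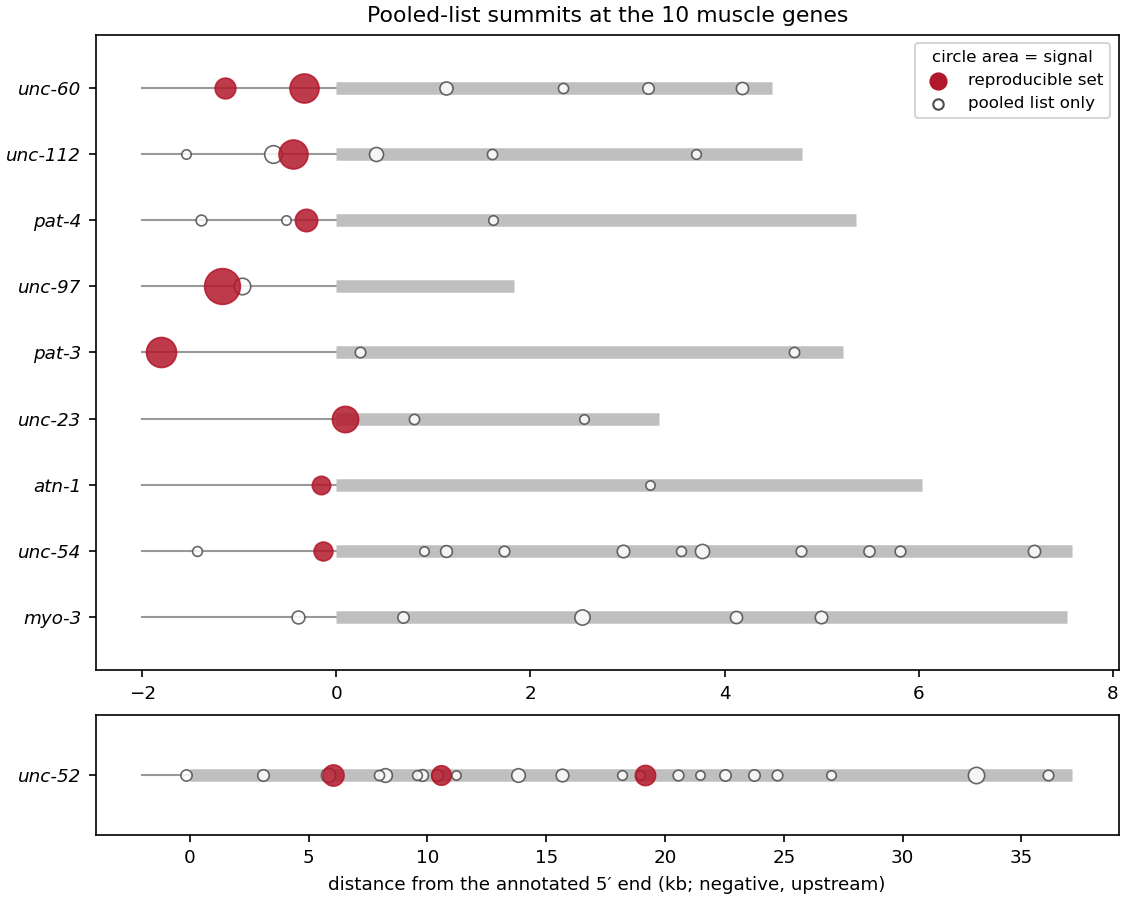
Summits of the pooled list at the 10 genes, by distance from the annotated 5′ end in kb (negative values are upstream; the thick grey bar is the gene, and unc-52 has a scale of its own). Circle area is proportional to signal, and filled circles are the 12 summits of the reproducible set, of which 8 lie upstream.

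The strongest summit belonged to unc-97, the PINCH protein, a LIM-domain adaptor that joins the kinase to other proteins at the adhesion (WBGene00006826, chromosome X, 5593133 to 5594965, plus strand). Its peak ran from 5591859 to 5592140, with the summit 1176 bp upstream. The signal was 420.5 in the pooled list, 249.8 in replicate 6 and 169.7 in replicate 7. These values are rank 95 in the pooled list, 109 in replicate 6 and 96 in replicate 7, so the placing was alike in the 3 lists. No other protein-coding gene has its 5′ end nearer than sulp-2, at 7373 bp. A weaker pooled summit 970 bp upstream had a signal of 89.6 and lay outside the reproducible set. The unc-97 gene itself, 1833 bp long, held no pooled summit, so a window starting 1000 bp upstream would leave it without a reproducible one. Of the 10 genes, 7 had a reproducible summit when the window started 500 bp upstream, without unc-97 and pat-3.

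The integrin gene pat-3, whose product spans the membrane and binds the matrix, had its only reproducible summit near the upstream edge of the window searched (WBGene00003930, chromosome III, 3908931 to 3914149, minus strand). The peak from 3915835 to 3916049 had its summit 1811 bp upstream. The signal was 296.8 in the pooled list (rank 234), 175.8 in replicate 6 (rank 277) and 120.3 in replicate 7 (rank 214). The summit is nearer to the divergent neighbour ccdc-47, whose 5′ end is 1007 bp away, so which gene it belongs to cannot be told from position. As at unc-97, a window starting 1000 bp upstream would leave pat-3 without a reproducible summit.

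The kindlin gene unc-112, which recruits the kinase to integrin, had a peak from 14697020 to 14697174 on chromosome V (WBGene00006836, 14691855 to 14696654, minus strand). Its summit lay 450 bp upstream, with a signal of 276.3 in the pooled list (rank 280), 166.3 in replicate 6 (rank 306) and 111.1 in replicate 7 (rank 262). It also lies 1862 bp upstream of the divergent gene set-5. A second pooled summit 649 bp upstream had a signal of 102.5 and rank 2037, just outside the reproducible set. In replicate 7 that summit had a signal of 71.5 and rank 661, while replicate 6 had no summit within 100 bp of it.

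For pat-4, the integrin-linked kinase, which acts as a scaffold in this complex, the peak ran from 94912 to 95331 on chromosome III (WBGene00003931, 89453 to 94809, minus strand). The summit was 313 bp upstream, with a signal of 164.5 in the pooled list (rank 826). The signal was 112.3 in replicate 6 (rank 757) and 50.1 in replicate 7 (rank 1535), inside both top lists but lower in replicate 7. The other 3 pooled summits of pat-4 were weak, none above a signal of 38.3.

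The perlecan gene unc-52 encodes the main matrix ligand beneath the muscle (WBGene00006787, chromosome II, 14647321 to 14684456, minus strand, 17 annotated transcripts). It was the only member with reproducible summits in introns, 3 in all. They lay 6026, 10588 and 19154 bp from the annotated 5′ end. The first had a signal of 147.1 in the pooled list (rank 1034), with rank 976 in replicate 6 and 1989 in replicate 7. It lies 27 bp upstream of the 5′ end of hhat-1, a gene on the opposite strand that starts within that intron. The summit at 10588 bp reached 125.4 in the pooled list, with rank 2956 in replicate 6 and 673 in replicate 7. The summit at 19154 bp had a signal of 134.1 and similar ranks in both, 1330 and 1256, and it is the only unc-52 summit in both top lists. It lies 1550 bp from the start of the nearest annotated unc-52 transcript, and the other 2 lie 5866 and 6925 bp from theirs. The only pooled summit upstream of unc-52, at 151 bp, had a signal of 41.5, rank 14079, and no match within 100 bp in either replicate.

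The co-chaperone gene unc-23 had the only exonic summit among the members (WBGene00006760, chromosome V, 8936359 to 8939684, plus strand). It lay 94 bp downstream of the annotated 5′ end, in the untranslated part of an exon that runs from 8936359 to 8936630. The signal was 226.9 in the pooled list (rank 443), 178.7 in replicate 6 (rank 263) and 46.5 in replicate 7 (rank 1882). The summit was thus close to the end of the top list in replicate 7 but far up the list in replicate 6, the widest gap in rank towards replicate 6 among the 12. Replicate 7 ends its top list at a signal of 45.75.

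Of the actin-filament genes, unc-60 had 2 reproducible summits (WBGene00006794, chromosome V, 1475086 to 1479576, plus strand). The stronger, 329 bp upstream, had a signal of 277.2 in the pooled list (rank 276), 178.6 in replicate 6 (rank 264) and 107.6 in replicate 7 (rank 280). The other, 1144 bp upstream and next to the run of 17 G, had a signal of 141.1 (rank 1111), with rank 921 in replicate 6 and 1711 in replicate 7. Both summits lie at the same distances from F53E2.2, which shares the annotated 5′ end of unc-60.

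The alpha-actinin gene atn-1, which cross-links actin at dense bodies, had its summit 162 bp upstream, within the antisense noncoding gene W04D2.10 (WBGene00000228, chromosome V, 12478411 to 12484449, plus strand). Its signal was 110.8 in the pooled list (rank 1756), the lowest of the 12. It was 59.4 in replicate 6 (rank 2480) and 61.75 in replicate 7 (rank 937), so that it was in the top list of replicate 7 alone.

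The myosin gene unc-54, the major heavy chain of the thick filament, followed the same pattern (WBGene00006789, chromosome I, 14855901 to 14863482, minus strand). The summit, 139 bp upstream, reached 117.0 in the pooled list (rank 1582), a signal of 55.9 in replicate 6 (rank 2757) and 52.4 in replicate 7 (rank 1376). The other heavy-chain gene, myo-3, whose product sits at the centre of the thick filament, had 5 pooled summits, none in the reproducible set (WBGene00003515, chromosome V, 12226817 to 12234343, minus strand). The strongest lay 2532 bp inside the gene, in a coding exon, with a signal of 76.5 (rank 3557). It had rank 6925 in replicate 6 and 3417 in replicate 7, outside both top lists. A summit 397 bp upstream of myo-3 had a signal of 54.3 in the pooled list and 32.0 in replicate 6, with no match in replicate 7.

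**Figure D2:**
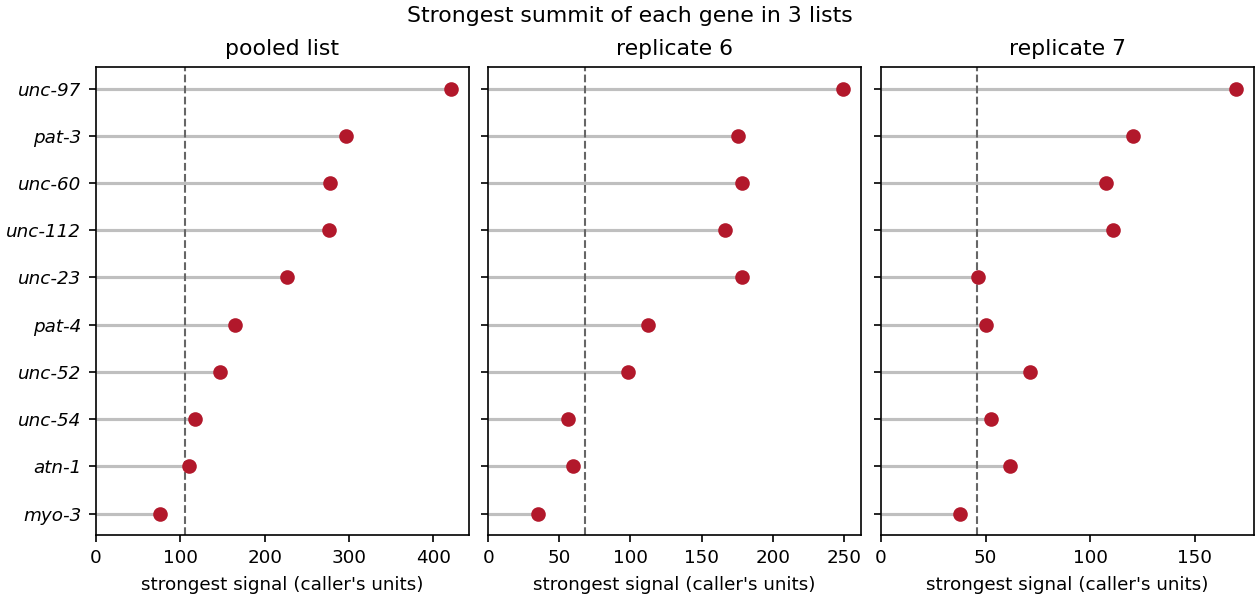
Strongest signal in each gene window in the pooled list, replicate 6 and replicate 7, in the caller's own units, whose scale differs between lists. Dashed lines mark the weakest of the 1945 strongest peaks of each list; myo-3 is below the line in all 3 lists, and unc-54 and atn-1 are below it in replicate 6.

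The weakest member summits inside the reproducible set were atn-1 at 110.8, unc-54 at 117.0 and an unc-52 summit at 125.4, and the set ends at 105.3. The strongest outside it were the second unc-112 summit at 102.5 (rank 2037) and the second unc-97 summit at 89.6 (rank 2643). Next came an unc-52 summit 33065 bp inside the gene at 87.2 (rank 2807) and the strongest myo-3 summit at 76.5 (rank 3557).

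How the 2 replicates placed these summits was compared next. All 12 reproducible summits had a summit within 100 bp in both whole replicate lists, at most 81 bp away in replicate 6 and 44 bp in replicate 7. Of the 12, 8 were in both top lists, 3 in that of replicate 7 alone and 1 in that of replicate 6 alone. The 3 were those of atn-1, unc-54 and the unc-52 summit at 10588 bp, and the 1 was the unc-52 summit at 6026 bp. By gene, 7 of the 10 had a summit in the top list of replicate 6, against 9.11% of all genes, and 9 in that of replicate 7, against 8.72%. A matched summit in both top lists was found for 7 genes, unc-60, unc-112, pat-4, unc-97, pat-3, unc-52 and unc-23, against 5.57% of all genes. The members' counts in the top lists, too, follow from how the genes were chosen and are not results about them. No gene was absent from either whole list: each window held at least 1 peak of each replicate, background included. The 4 strongest summits, those of unc-97, pat-3, unc-60 and unc-112, lay between ranks 96 and 306 in both replicates. Among the filament genes, the strongest summits of unc-54, myo-3 and atn-1 ranked higher in replicate 7. The unc-60 summit 1144 bp upstream ranked higher in replicate 6, and the nearer unc-60 summit was placed alike in both (264 and 280). The difference between replicates was not tested.

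**Figure D3:**
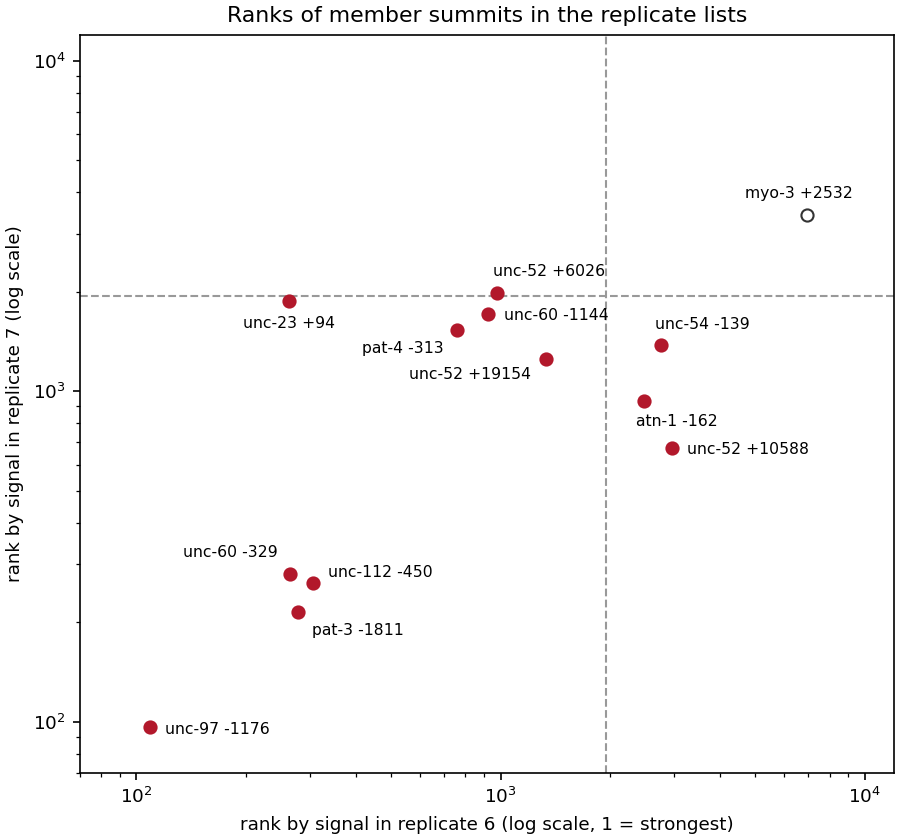
Rank of each of the 12 reproducible member summits in replicate 6 and replicate 7, on log axes, labelled with the distance from the 5′ end in bp (minus, upstream); the open circle is the strongest summit of myo-3. Dashed lines mark rank 1945, and the 8 filled points at the lower left are in both top lists.

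The remaining 55 pooled summits in the windows were weaker. Their signals ran from 28.0 to 102.5 with a median of 38.3, and the pooled list as a whole has a median of 40.3. Of the 55, 25 lay in exons, 22 in introns and 8 upstream. Matches were found in both replicates for 10 of them, in replicate 6 alone for 20, in replicate 7 alone for 13 and in neither for 12. Of the 55, 21 were at unc-52, the longest gene. Some of the 55 lay in peaks that overlap a reproducible peak of the same gene. Examples are those 649 bp upstream of unc-112, 970 bp upstream of unc-97 and 518 bp upstream of pat-4.

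Sequence features that the choice of genes did not use were then described. G+C content over each of the 12 summits and the 50 bp to either side ran from 42.6% at pat-3 to 65.3% at unc-54, with a median of 53.0%. In windows of the same length centred 250 bp upstream and downstream, the medians were 37.6% and 37.1%. At all 12 summits the content was above both flanks, and over the whole reproducible set that was so for 75.0% of 1945. The whole set had a median of 49.5% and the nuclear genome stands at 35.4%. The smallest excess over a flank was at atn-1 and pat-3, and at pat-3 the values were 42.6% at the summit and 40.6% and 39.6% beside it. Control libraries were not analysed here, and the part of base composition in the signal was not tested.

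**Figure D4:**
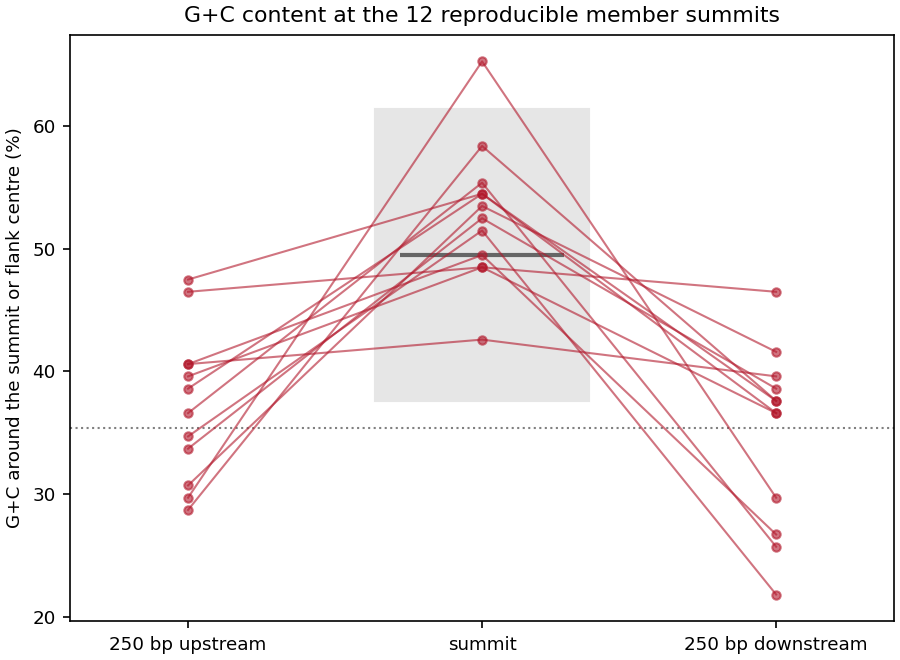
G+C content of short windows (a centre and 50 bp to either side of it) at each of the 12 summits and 250 bp up- and downstream, read in the direction of the gene, with a line for each summit. The grey band spans the 5th to the 95th percentile of all 1945 reproducible summits, the bar is their median of 49.5%, and the dotted line is the genome at 35.4%; every line is highest at the summit.

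Words were searched on both strands of the same windows. The E-box CANNTG, the type of site bound by muscle-forming basic helix-loop-helix factors, was found at 1 of the 12 summits, the unc-52 summit at 19154 bp, against 31.3% of all reproducible summits. Its form CAGCTG, which CANNTG includes, was found at 0 of 12, against 3.24%. The CArG box, bound by serum response factor and its worm counterpart UNC-120, was found at 0 of 12, against 0.154%. The telomere-type word TTAGGC was also at 0, against 8.69%. The word GAGAGA was found at 3, those of pat-3, unc-54 and the unc-52 summit at 10588 bp, against 25.1% of the set. GCGTCT was found at 2, those of unc-97 and the unc-52 summit at 6026 bp, against 11.8%. Runs of at least 10 G or C were found at 2, the unc-60 summit 1144 bp upstream and that of pat-4, against 1.34%. The last 2 patterns were chosen after the sequences had been seen. A match is only a description, and with 12 summits these counts are coarse.

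Other muscle genes were listed by role to set beside these. Of 20 further attachment and dense-body genes, 6 had a reproducible summit in the gene window, against 9.00% of all genes, and their median window is 11402 bp. Among all genes with a window at least as long as the members' median, 20.3% had one. A matched summit in both top lists was found for 2 of the 20. The strongest of the 6 were deb-1, which encodes vinculin, alp-1, an Enigma-family protein of dense bodies, and lim-8, a LIM-domain protein. For deb-1 the summit was 1337 bp upstream and its signal 216.4, ranking 345 in replicate 6 and 888 in replicate 7. That of alp-1 was in an intron, 1178 bp inside, at 184.7 (ranks 636 and 731). That of lim-8 lay in a coding exon, 2931 bp inside, at 138.2 (ranks 2786 and 798). The others were cpna-1, tln-1 and dim-1, with signals from 105.8 to 113.8. The integrin alpha subunit gene pat-2 and the parvin gene pat-6, partners of pat-3 and of pat-4, had no reproducible summit.

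Of 24 further sarcomere and filament genes, 1 had a reproducible summit, the actin gene act-4, whose intronic summit 1099 bp inside had a signal of 513.6 (rank 45 in replicate 6 and 92 in replicate 7). That is 4.17%, against 9.00% of all genes, but it rests on 1 gene and changed with the list used. Among the 3890 strongest pooled peaks the count was 7 of 24, against 3176 of 19973 genes. In the top list of replicate 7 it was 4, against 8.72% of all genes, and in that of replicate 6 it was 2, against 9.11%. Sarcomere and filament genes without a reproducible summit include unc-15, the paramyosin gene, the giant-protein genes unc-22, unc-89 and ttn-1, and the myosin chaperone gene unc-45. Of 13 excitation and membrane genes, 3 had a reproducible summit (23.1%), and the median window of the 13 is 9554 bp. Among all genes with a window at least as long as the members' median, 20.3% had one. The 3 were unc-43, the calcium and calmodulin-dependent kinase, with a signal of 165.7, dys-1, dystrophin, at 157.2, and stn-1, syntrophin, at 116.3. In replicates 6 and 7 unc-43 had ranks 956 and 1032, dys-1 733 and 2132, and stn-1 2446 and 1083. Only the unc-43 summit thus ranked inside both top lists. Of 6 muscle fate regulators, unc-62, a Meis-type homeobox gene, had summits, the strongest at 468.5 (ranks 91 and 66), and hlh-1, the MyoD counterpart, unc-120 and hnd-1 had none. Of 12 genes of the epidermal fibrous organelles, which link muscle to cuticle, only vab-10, a spectraplakin gene, had any, 4 summits of which the strongest had a signal of 201.5.

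**Figure D5:**
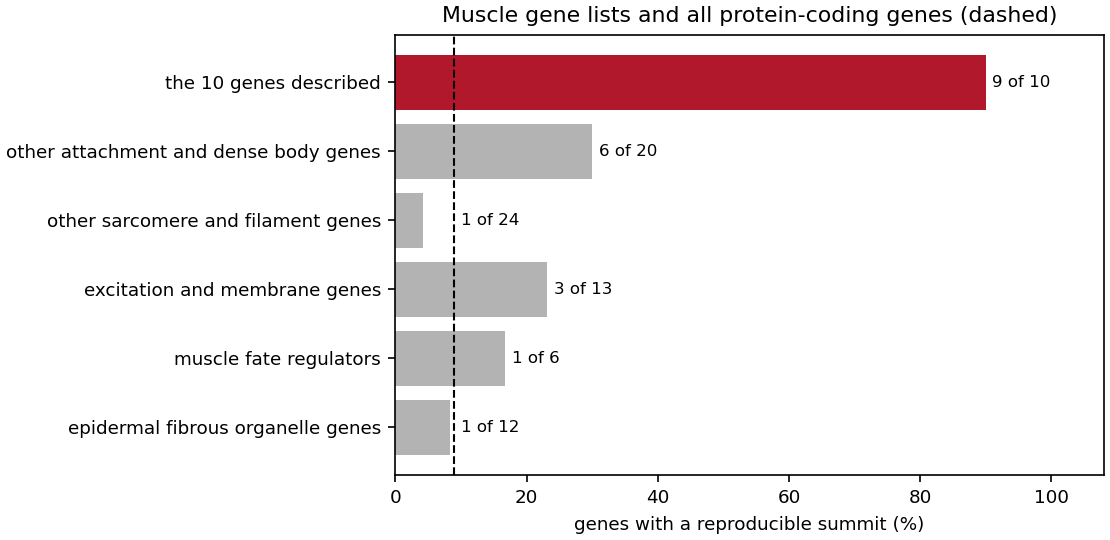
Percent of genes with a reproducible summit in the gene window, for the 10 genes described (red) and 5 other lists, with counts beside the bars. The dashed line is the 9.00% of all protein-coding genes; the red bar was set by the choice of genes, and the lists differ in gene length.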

How the data were processed

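ChIP-seq peak lists of HAM-2 from 2 replicate embryo libraries were used. Per the labels the assembly is ce11, and per the deposited listing each list was called from replicate alignments with a control alignment. What aligned the reads, what called the peaks and how deep the libraries are is not stated in the labels or the listing, and precision is therefore unknown. The signal per peak is the authors' deposited value. Gene models came from Ensembl release 115 (WBcel235, the same assembly), with bases from the RefSeq copy, and no peak ran past the end of its nuclear chromosome (24 checks, 1 for each chromosome in each list). Mitochondrial peaks were left out before ranking. Positions are 1-based. Summits matched within 100 bp. Introns are stretches outside the exons of every transcript. Python 3.11.15, numpy 2.4.6, pandas 2.3.3 and matplotlib 3.10.9 were used, and placement was tested on simulated data. The members and lists were chosen with earlier results of these data known. Genes named beyond the members are the 3 strongest of each list, neighbours that share a summit, and genes of small counts or known partners chosen after their values were seen. No test was run. Sequences on 1 chromosome and any touching annotated UTRs are not shown, which leaves 9 of 12 summits.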

Additional observations from a re-analysis of the deposited data

How the results depend on the processing

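No paired analysis was possible because the series has 1 group. Of 59 alternatives, 35 stayed within 1.5 times the reported count. Without replicate 6 or 7, the single top lists gave 9 and 7 members, and for further sarcomere genes 4 and 2 in place of 1, and for fibrous organelle genes 3 and 1. With gene bodies alone, 2 of 10 members and 4 summits were left, against 608 of all genes. The window of 1000 bp upstream to 200 bp downstream gave 6 summits in place of 12 and 919 genes in place of 1797. Under it, excitation genes fell to 1, and the attachment, sarcomere, fate and fibrous organelle lists to 0. A start 500 bp upstream gave 1175 genes. The upper 50% of the reproducible set gave 6 summits and 945 genes. Among the 3890 strongest pooled peaks there were 3176 genes, with 7 sarcomere, 5 excitation and 7 fibrous organelle genes. Genes with long windows numbered 598, an alternative added after the data were seen. With top lists 50% as long, 4 members were in both, in place of 7. In 51 bp around the summits, the E-box was at 0 and GCGTCT at 1. The cause of these shifts beyond fewer peaks or shorter windows was not tested. Read depth is unknown, so no limit from it can be given.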

Other observations

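Single replicate lists held a few muscle genes that the reproducible set lacks. In the top list of replicate 7 the sarcomere list had 4 genes, ttn-1, which encodes a giant elastic protein, mlc-3, a myosin light chain, and the actin genes act-1 and act-4. In that of replicate 6 it had 2, act-4 and cap-2, which encodes a capping protein subunit. Only act-4 was in both. The fibrous organelle gene mua-6, an intermediate filament gene, and git-1 were in the top list of replicate 7 alone.

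Several member sequences were rich in C and T on the strand of the gene, which was noticed after they had been printed. The share of C and T within 50 bp of the summit was 73.3% at unc-112, 69.3% at pat-3 and unc-23, 68.3% at the nearer unc-60 summit, 65.3% at the unc-52 summit 10588 bp inside and 63.4% at pat-4. The other 6 ran from 40.6% to 57.4%. At each of the sites named with its share, the upstream flank was lower than the summit. The downstream flank was higher at unc-112 (77.2%), the nearer unc-60 summit (71.3%) and pat-4 (70.3%). It was lower at pat-3 (42.6%), unc-23 (54.5%) and that unc-52 summit (57.4%). Over all 1328 upstream pairs of a gene and a reproducible summit the median was 51.5%, and 22.1% were above 60%, as were 4 of the 8 upstream member summits. Inside genes 21.8% of 748 pairs were above it, and 2 of 4 member summits. No test was run.

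Peak width differed among the member summits. The peaks of unc-97, pat-3, unc-60 and unc-112 were 282, 215, 206 and 155 bp wide, and the other 8 had the most common width of the set, 420 bp. Over the whole reproducible set, 402 narrower peaks had a median signal of 297.3, the 1505 of that width one of 137.0, and 38 wider peaks, none at a member, one of 475.9.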
